A study of Homo sapiens with 41 samples.

Results

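The window from 190 to 230 min after serum was compared with the window from 150 to 180 min in T98G cells, a human glioblastoma line that leaves the cell cycle when serum is withdrawn and returns to it when serum is given back. The later window holds 5 libraries, at 190, 200, 210, 220 and 230 min, and the earlier window 4, at 150, 160, 170 and 180 min, so that 9 of the 41 libraries of the series were used. All cells had been starved of serum for 72 h and were then given medium with 20% fetal calf serum. The labels give the time since then as the difference between the windows, and do not say whether neighboring time points were cultured or extracted as 1 batch, so a batch that moves with time cannot be told apart from time. Each time point is 1 dish and 1 library of total RNA depleted of rRNA, so neighboring time points stand in for replicates. The spread within a window therefore holds real change over time as well as the differences between dishes, and every p-value below rests on that spread.

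Serum carries growth factors and lipids that switch on a first set of genes within minutes, the immediate early genes, many of which encode transcription factors whose mRNAs soon decay. Their products and the pathways upstream of them, among them ERK, SRF, YAP and NF-kappaB, then act on delayed genes for secreted proteins, protein synthesis and ribosome assembly. Genes that mark quiescence, many of them driven by FOXO factors while growth factor signaling is low, decline over the same hours. The hours compared here lie after the immediate early peak and before DNA synthesis.

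Libraries held 37220956 to 58858945 counts at 190-230 min and 29944111 to 59703845 at 150-180 min. Over 12593 genes averaging 100 normalized counts or more, Pearson's r of log2 counts between any pair of the 9 libraries lay between 0.987 and 0.998. The median absolute deviation of a gene from the other libraries was largest at 230 min (0.121 on the log2 scale) and smallest at 170 min (0.0599). The shares of counts in protein-coding genes, lncRNAs, spike-ins, mitochondrially encoded mRNAs, the 10 most abundant genes and the 7SL and 7SK RNAs did not pass a test between the windows (exact permutation over libraries, two-sided, adjusted p at least 0.667 over the 6 shares, where 0.0159 is the smallest unadjusted p the design allows). Of the markers of a mesenchymal glioma line, VIM, CD44, FN1, S100A6, ANXA1 and TIMP1 were abundant in both windows. VIM had 50132 to 54459 normalized counts at 190-230 min and 46975 to 49547 at 150-180 min. Others on that list were low. CHI3L1 had 207 to 249 counts at 190-230 min and 236 to 283 at 150-180 min, NES 32.1 to 48.8 and 35.0 to 60.6, and OLIG2 26.3 to 43.0 and 22.6 to 37.0. GFAP and SOX2, defining genes of astrocytes and neural stem cells, and PTPRZ1 stayed under 10 in all 9 libraries. Among markers of other cells, CD3E, MS4A1 and RBFOX3 were at 0 in all 9. The neuron marker SNAP25, on the same list as RBFOX3, had 584 to 673 counts at 190-230 min and 672 to 702 at 150-180 min, ITGAM had 48.0 to 74.9 and 53.7 to 64.5 in these windows, and GAD1 and VWF were above 10 in all 9. The summed immune list, carried by the lysosomal gene CD68, was 1644 to 1938 at 190-230 min and 1730 to 1925 at 150-180 min.

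Of 21629 genes tested with edgeR between the windows, 5 were higher at 190-230 min (0.0231% of the genes tested) and 4 were lower (0.0185%) at an adjusted p below 0.01. The 5 genes that rose were ADAM12, CDC42EP2, PDZRN3, COL7A1 and WWC1, and those that fell were PPP1R3C, ZIC5, TNFSF10 and STON1-GTF2A1L. In all 9 genes every library of 190-230 min lay on one side of every library of 150-180 min, as it did for 953 genes upward (4.41%) and 785 genes downward (3.63%) among all tested. The same test found 2104 genes higher and 1809 lower at an unadjusted p below 0.05. At an adjusted p below 0.05, 415 genes were higher (1.92%) and 366 lower (1.69%), and below a gene is said to have risen or fallen when it passed that looser limit. The limit was one of the alternatives of the comparison, and its use for describing gene groups was chosen after the count at 0.01 had been seen.

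ADAM12 (chr10:126012381-126388477, GRCh38), a membrane metalloprotease that sheds growth factors from the cell surface, had 387, 461, 431, 463 and 472 normalized counts at 190, 200, 210, 220 and 230 min, against 274, 285, 327 and 294 at 150, 160, 170 and 180 min. Its log2 change was 0.59 (SE 0.08, adjusted p = 0.00917). WWC1 (chr5:168291645-168472303), which encodes the Hippo pathway protein KIBRA, had 162, 162, 177, 184 and 190 counts at 190-230 min, against 93.3, 118, 110 and 123 at 150-180 min, a log2 change of 0.68 (SE 0.10, adjusted p = 0.00953). Both genes were higher in each later library, and WWC1 also climbed within its windows. CDC42EP2 (chr11:65314866-65322417), an effector of the small GTPase CDC42 that shapes the actin cytoskeleton, averaged 376 ± 26.6 counts at 190-230 min (SD, n = 5) and 263 ± 19.2 at 150-180 min (SD, n = 4). PDZRN3 (chr3:73382431-73624941), a ubiquitin ligase with PDZ domains, averaged 723 ± 48.8 at 190-230 min and 528 ± 36.7 at 150-180 min. COL7A1 (chr3:48564073-48595329), the chain of type VII collagen that anchors basement membranes, was the most abundant of the 9, with 10040, 10460, 10260, 10680 and 10940 counts at 190-230 min, against 7754, 8590, 8255 and 8995 at 150-180 min. Its log2 change was only 0.32 (SE 0.05), and the windows still did not overlap.

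TNFSF10 (chr3:172505508-172523475), the death ligand TRAIL, had 122, 110, 116, 99.5 and 90.5 counts at 190-230 min, against 227, 187, 173 and 159 at 150-180 min, a log2 change of −0.82 (SE 0.12, adjusted p = 0.00917). ZIC5 (chr13:99962964-99971767), a zinc finger transcription factor, had 283, 258, 238, 241 and 191 counts at 190-230 min, against 476, 437, 362 and 386 at 150-180 min (log2 change −0.79, SE 0.11). PPP1R3C (chr10:91628442-91633071), the subunit that brings protein phosphatase 1 to glycogen, averaged 509 ± 47.8 at 190-230 min and 724 ± 44.3 at 150-180 min (log2 change −0.52, SE 0.07). Within both windows TNFSF10 and ZIC5 moved downward as well, so that the lowest value of each was at 230 min. STON1-GTF2A1L (chr2:48529925-48776517), a read-through locus outside the rule for named genes because of its low count, averaged 70.8 ± 13.1 at 190-230 min and 129 ± 15.2 at 150-180 min. Its reads are also counted for STON1, an endocytic adaptor gene that fell with it (138 against 234 on average, log2 change −0.78), and the pair cannot be told apart by these counts.

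**Figure D1:**
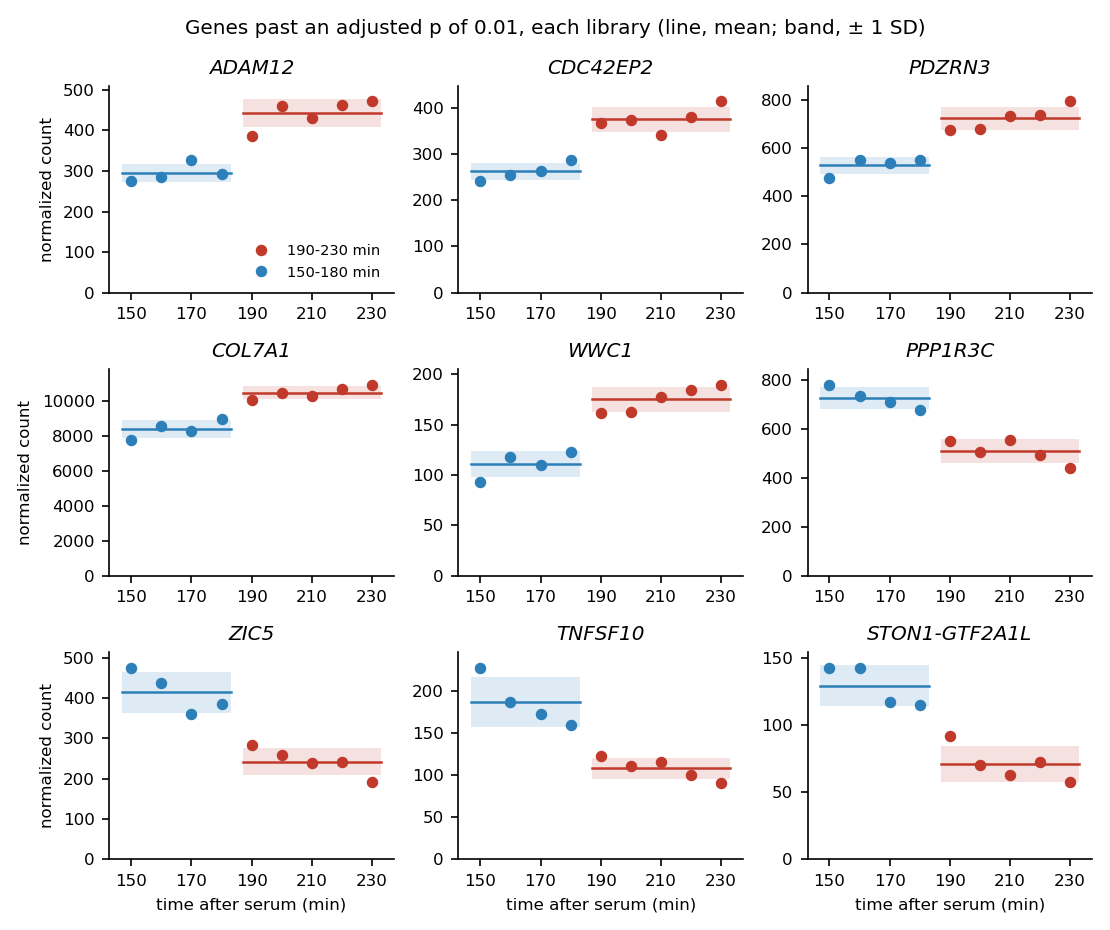
Normalized count (vertical axis, from 0) of the 9 genes past an adjusted p of 0.01 in each library, by time after serum in min; each point is 1 library, red for 190-230 min and blue for 150-180 min, with the window mean as a line and ± 1 SD as a band. No gene has overlapping windows, and several, such as TNFSF10 and WWC1, also move within each window.

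Leaving out single libraries moved these counts far more than the changes themselves. Without the library at 150, 160, 170, 200, 210 or 220 min no gene passed 0.01, without that at 180 min 15 rose and 17 fell, without that at 230 min 7 and 15, and without that at 190 min 260 and 274. At 0.05 no gene passed without the library at 150 or 160 min. The counts at 0.05 were 275 higher and 249 lower without 170 min, 49 and 41 without 200 min, 46 and 34 without 210 min, 224 and 221 without 220 min, 218 and 213 without 230 min, and 899 and 805 without 190 min. With spike-in size factors 114 genes were higher and 137 lower at 0.05, and 152 of the 781 calls remained. All 781 genes past 0.05 kept their sign and an unadjusted p below 0.05 in each of the 9 fits with 1 library left out. They were picked at a stricter p from these same libraries, so this outcome was nearly fixed in advance and is no support for the calls. A fit of all 41 libraries in 10 windows, which share 1 estimate of the spread, gave 264 genes higher and 245 lower at 0.01, and it held all 9 of the genes named above. Counts simulated for this comparison were flat within each window. In them 74 of 75 genes changed by 1.5-fold were recovered at 0.01 and 12 of 62 changed by 1.2-fold. Drift within the real windows adds to the spread, so these shares do not carry over to genes that drift. Among genes past 0.05, 39 of the 415 higher and 63 of the 366 lower reached 1.5-fold, and only 9 genes passed 0.01. DDIT4 rose 2.34-fold with an edgeR adjusted p of 0.0498.

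The changes were small. The genes that rose had a median log2 change of 0.29, or 1.23-fold, and 10 of the 415 reached 2-fold. Those that fell had a median of −0.39, with 12 of 366 past 2-fold, while the median over all genes tested was −0.0008. The few genes below that did not pass were named after their values were seen. The question of whether expression broke at the border between 180 and 190 min, beyond a straight line through both windows, was tested with a window term added to a term for time. No gene passed 0.01 in either direction (0% of 21629, lowest adjusted p = 0.25 with edgeR, the only tool run for this term). At an unadjusted p below 0.05, 249 genes jumped up and 237 down, which is 2.25% of those tested. That balance depended on the scaling and on 1 library. With spike-in size factors 22 genes jumped up and 6222 down at this p, with a median jump over all genes of −0.36, and without 230 min the counts were 912 and 1334. In simulated counts this test recovered 70 of 76 genes with a 2-fold jump, 23 of 67 with a 1.5-fold jump and 0 of 57 with a 1.2-fold jump, so jumps of the size of the median change were not detectable. The fitted jump was a small part of the window change, with a median of 0.03 over the 415 genes that rose and −0.06 over the 366 that fell. It had the sign of the window change in 290 of the 415 and in 274 of the 366. Small jumps can therefore not be told apart from a gradual change here.

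A straight line in time over the same 9 libraries, a fit added after the data had been seen, passed 0.01 for 827 rising genes (3.82%) and 663 falling genes (3.07%). Of the 415 genes that rose between the windows 383 were among the rising lines, and of the 366 that fell 326 were among the falling ones. Both fits use the same libraries and time moves with the window, so this overlap is no independent support. With each library left out the line fit gave 375 to 1193 rising and 337 to 695 falling genes, the lowest counts coming without 150 min (375 and 337) and the largest number of rising genes without 230 min (1193 and 639). Without 160 min it gave 485 and 386. With size factors from the spike-ins it gave 554 and 125, and the median slope of all genes was then 0.14 log2 units per hour, against −0.003 with the median-of-ratios factors. The slope of each gene is given below as the log2 change per hour.

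Changes between neighboring libraries were read in the genes that rose or fell between the windows. Across the border, from 180 to 190 min, the median log2 difference was 0.10 in the genes that rose, which was less than the 0.11 from 160 to 170 min and the 0.11 from 220 to 230 min. In the genes that fell it was −0.11 across the border, −0.13 from 160 to 170 min, −0.12 from 190 to 200 min and −0.14 from 220 to 230 min. Of the genes that rose 87.0% moved up across the border, 85.3% from 160 to 170 min and 74.9% from 220 to 230 min. Of those that fell 12.8% moved up across the border, 11.5% from 160 to 170 min and 16.9% from 220 to 230 min. The steps from 170 to 180 and from 200 to 210 min were the flattest for the genes that rose (0.03 and −0.01), and that from 200 to 210 min for those that fell (−0.01). These genes were chosen by the comparison of the windows, so the values describe them and are no test.

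**Figure D2:**
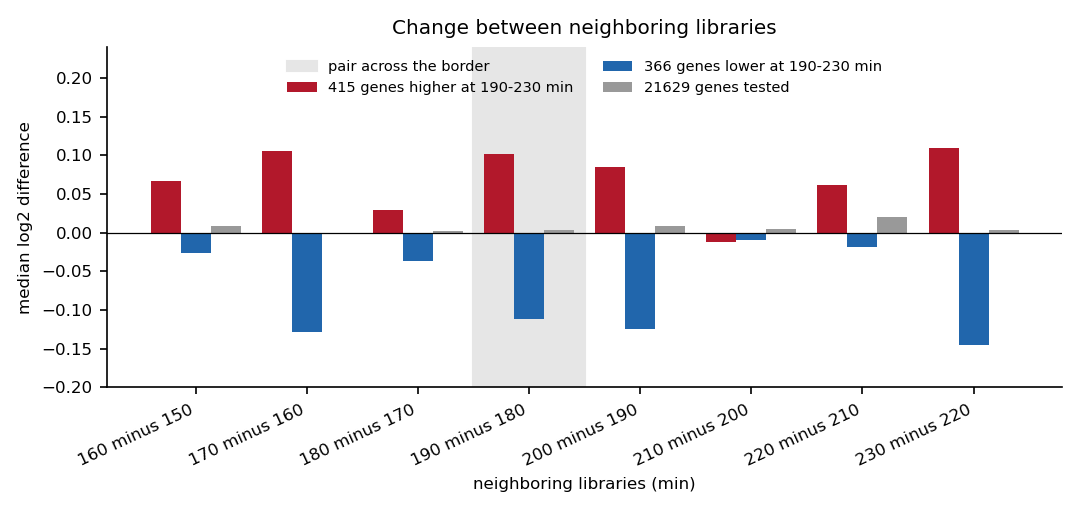
Median log2 difference (vertical axis) between each pair of neighboring libraries within 150 to 230 min, for the genes higher at 190-230 min (red), those lower (blue) and all genes tested (gray); the shaded pair lies across the border. The pair across the border, at 0.10 and −0.11, is no larger than the pairs from 160 to 170 and from 220 to 230 min.

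The change between the windows was compared with the changes before and after in the 18 libraries from 110 to 280 min. These are differences of window means and not slopes. The means lie 40 min apart before, 45 min here and 50 min after, so a constant slope gives a difference other than 0. Against the change from 110-140 to 150-180 min no gene passed 0.01 (0% of 21629 in either direction, 363 and 561 genes at an unadjusted p below 0.05). Against the change from 190-230 to 240-280 min none passed either (0% in either direction, 424 and 389 genes), all with edgeR. In simulations, again flat within each window, these bends were recovered in 64 of 68 and 73 of 76 genes at 2-fold and in 24 of 50 and 34 of 57 at 1.5-fold. At 1.2-fold they were recovered in 0 of 82 and 3 of 67, so small bends were mostly not detectable. Among genes named below, chosen after their values were seen, LDLRAD4 had a bend from the previous windows of 0.85 (SE 0.26) and none passed the adjusted limit.

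**Figure D3:**
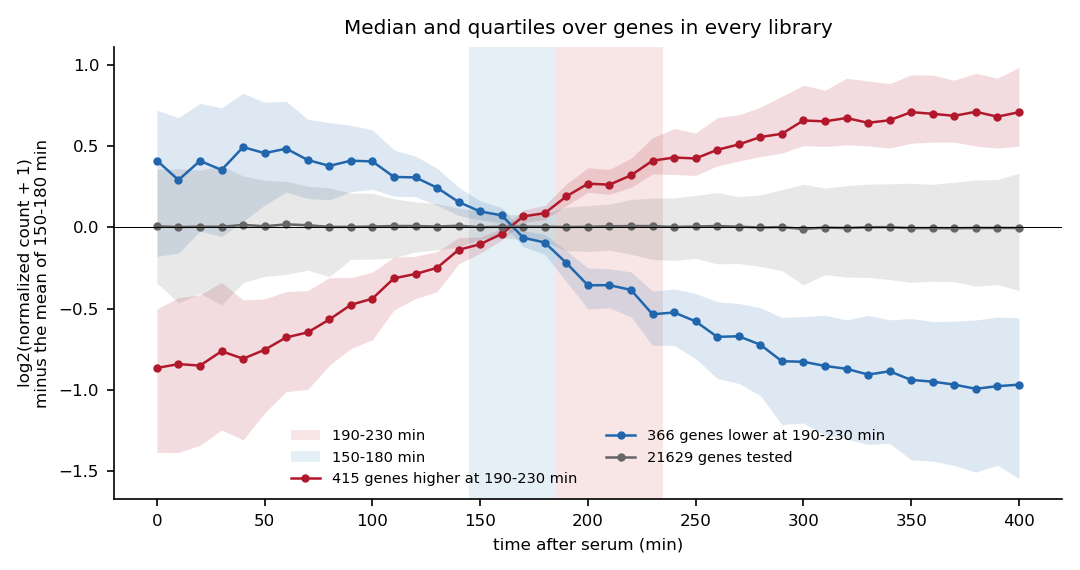
Median (points) and quartiles (bands) over genes of log2(normalized count + 1) minus the gene's mean over 150-180 min, in each of the 41 libraries by time after serum in min, for the 415 genes higher and the 366 lower at 190-230 min and all 21629 genes tested; the windows are shaded. Both sets cross 0 by construction at 150-180 min and drift on both sides of it without a visible break at the border.

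What these genes did at other times was read in libraries that the comparison does not use. The window of 0-10 min holds only 2 libraries, 1 unstimulated and 1 after 10 min in serum. They differ for some genes, with FOSB at 353 counts at 0 min and 679 at 10 min, and KLHL24 at 2824 and 1715. At 110-140 min against 0-10 min 2178 of all genes were higher (10.1%) and 1026 lower (4.74%) at 0.01, and at 350-400 min against 240-280 min 1959 were higher (9.06%) and 1855 lower (8.58%). Of the 415 genes that rose here, 249 (60.0% of them, and 11.4% of the 2178) had already risen by 110-140 min, 7 had fallen, and 242 (58.3%, and 12.4% of the 1959) rose late in the course. In both of these comparisons 153 of the 415 rose (36.9%, against 2.10% of all genes tested). Among them were G0S2, an inhibitor of the lipase ATGL, and AKAP12, a scaffold of protein kinases A and C. Genes called between the windows were more abundant than all genes tested (median mean count 1351 for rises, 518 for falls and 208 for all). Abundant genes pass a limit more readily. The part of abundance in these shares, and in those of the genes that fell, was not tested. Without the library at 0 min the first comparison gave 3298 rising and 1446 falling genes, and without that at 110, 120, 130 and 140 min it gave 820, 664, 552 and 644 falling genes.

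The genes that fell here were a mixed set. By 110-140 min 80 of the 366 (21.9%) had risen above 0-10 min, 74 (20.2%) had fallen and 212 passed in neither direction. Late in the course 185 (50.5%, and 9.97% of the 1855) fell as well and 19 rose. The 47 that had risen early and fell late (12.8%, against 2.29% of all genes tested) include FOSB, NR4A3, PIM1, EGR2, SMAD7 and the lncRNA CARMN. The 34 that had fallen early and fell again late (9.29%, against 0.717%) include the protocadherin PCDH18, the repressor HBP1 and the FOXO target PNRC1. A further 98 (26.8%, against 73.0%), among them TGFBR3 and TNFSF10, did not pass 0.01 in the earlier or the later comparison. TNFSF10 was nevertheless lower in both (−0.49 with adjusted p = 0.0364 early, −0.41 with adjusted p = 0.0441 late). Of the genes that rose, 27 fell late in the course (6.51%, against 8.58% of all genes tested), and 2 of these, DDIT4 and DDIT3, had also fallen early.

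The gene lists described next hold 52 pathways, complexes and marker sets, and the share of each that moved is read against the 1.92% of all genes that rose and the 1.69% that fell. Medians are of the log2 change between the windows and are to be set against −0.0008 for all genes tested. Among lists with at least 10 genes tested, the highest medians were those of NF-kappaB genes, metallothioneins with zinc transporters, secreted growth factors, ribosome biogenesis factors and ATF4 targets. The lowest were those of immediate early transcription factors, growth arrest and FOXO targets, and TGF-beta and BMP feedback genes.

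**Figure D4:**
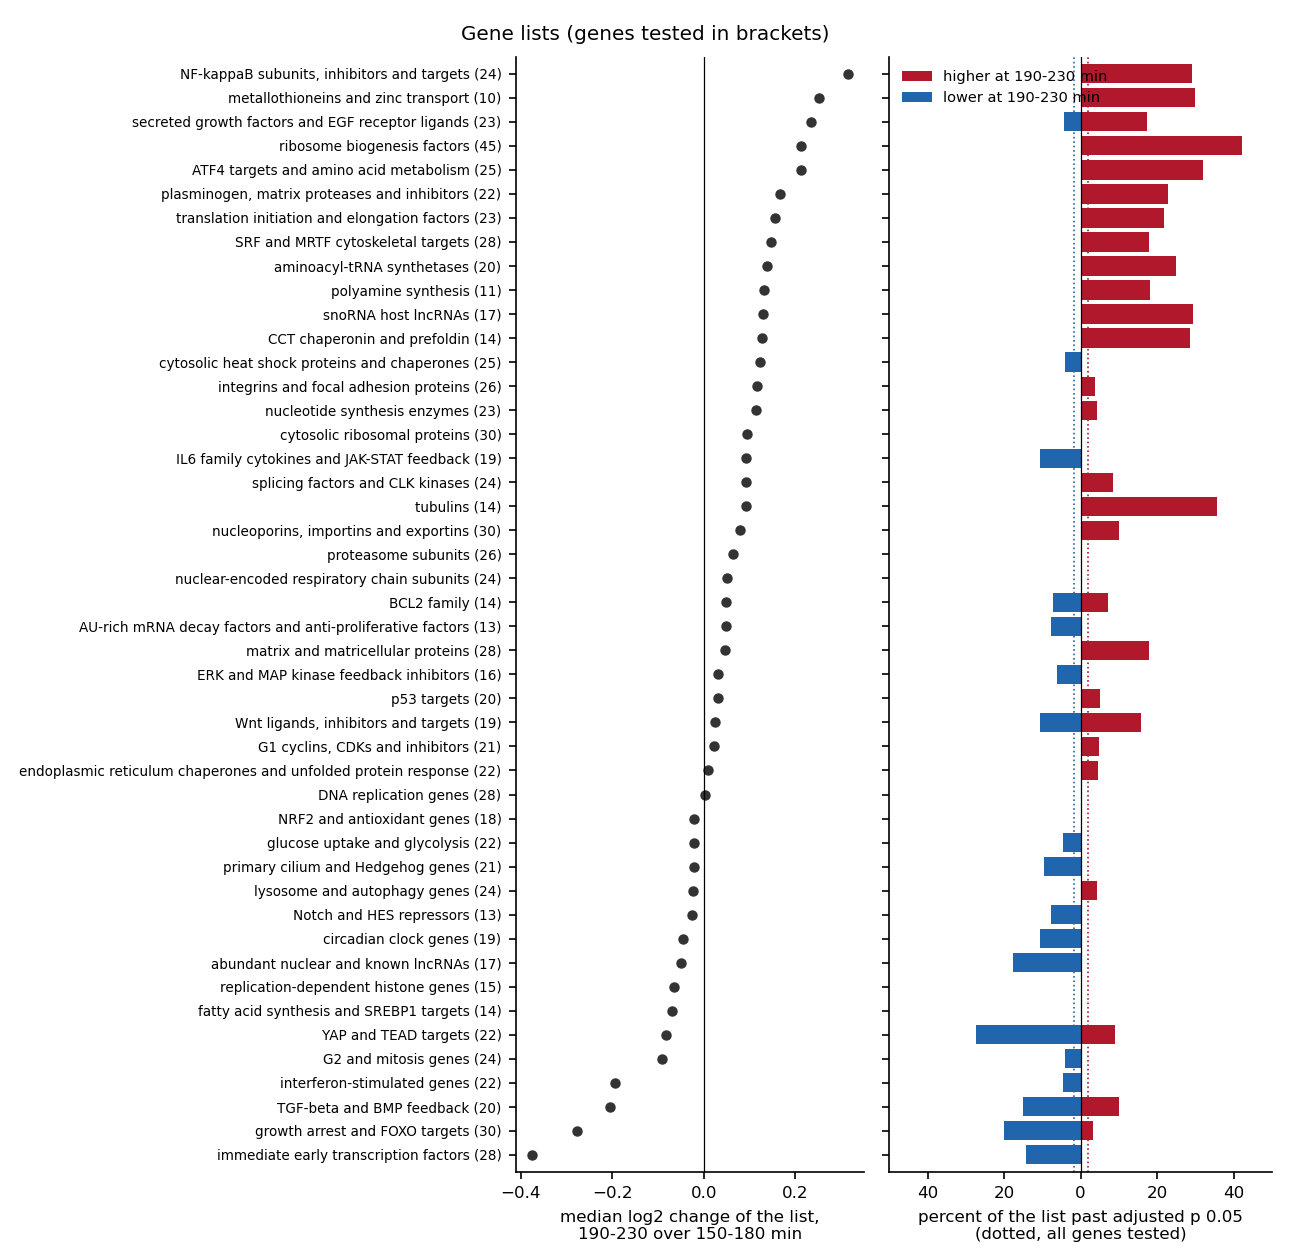
Left, median log2 change (190-230 over 150-180 min) of gene lists with at least 10 genes tested; right, percent of the list past an adjusted p of 0.05, to the right for higher (red) and to the left for lower at 190-230 min (blue), with dotted lines at the percent of all genes tested. Ribosome biogenesis factors have the longest bar to the right (19 of 45 genes) and YAP and TEAD targets the longest to the left (6 of 22).

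Targets of ATF4, the transcription factor made when amino acids run short or proteins misfold, and other genes of amino acid metabolism rose in 8 of 25 cases, and none fell. The median of the list was 0.21. DDIT4, an inhibitor of the growth kinase mTORC1, had the largest rise of any named protein-coding gene, with 1560, 1967, 1880, 2098 and 2965 counts at 190-230 min, against 599, 764, 1076 and 1187 at 150-180 min. Its log2 change was 1.23 (SE 0.26, adjusted p = 0.0498) and its slope 1.58 per hour (SE 0.11). It also climbed within the window of 150-180 min. CHAC1, an enzyme that degrades glutathione, had 649, 598, 668, 736 and 897 counts at 190-230 min, against 332, 368, 399 and 495 at 150-180 min (log2 change 0.86, SE 0.14, adjusted p = 0.0206). DDIT3, the stress factor CHOP, had 453, 573, 567, 569 and 685 at 190-230 min, against 282, 318, 412 and 376 at 150-180 min (log2 change 0.73, SE 0.13, adjusted p = 0.0222).

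DDIT4 and CHAC1 came down again late in the course, whereas DDIT3 stayed above its level of 150-180 min. Between serum addition (0-10 min) and 110-140 min DDIT4 fell by 1.30 and DDIT3 by 1.13 on the log2 scale, whereas CHAC1 rose by 1.89. Between 240-280 and 350-400 min DDIT4 fell by 1.82, CHAC1 by 1.47 and DDIT3 by 0.24, all 6 changes at 0.01. ATF4 itself (0.21), the serine synthesis enzyme PSAT1 (0.50), the amino acid transporter subunits SLC3A2 (0.30) and SLC7A5 (0.30) and the secreted glycoprotein STC2 (0.37) also rose between the windows. The asparagine synthetase ASNS (0.68) and SESN2, which reports leucine shortage to mTORC1 (1.01) passed only as rising lines, and 14 members of the list were rising lines in all. SLC7A11, the cystine transporter, had a log2 change of −0.05 and ATF5 of −0.001.

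Aminoacyl-tRNA synthetases, which charge tRNAs with their amino acids and many of which are ATF4 targets too, rose in 5 of 20 cases with none falling, and 11 of 20 passed as rising lines (median 0.14). GARS1 had 5672, 5936, 6089, 6555 and 7281 counts at 190-230 min, against 4529, 4821, 5315 and 5301 at 150-180 min, a log2 change of 0.34 (SE 0.07, adjusted p = 0.0276). TARS1 (0.30), YARS1 (0.27), MARS1 (0.26) and HARS1 (0.17) also passed. QARS1 (−0.02) lay at the other end. Unlike DDIT4 and CHAC1, GARS1 rose by 0.42 and TARS1 by 0.38 late in the course, with no change of sign.

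The promoters of these genes were searched for the letters TGATGCAA, a composite site of CHOP-type and ATF4-type elements, on both strands of 300 bases around the RefSeq start site. The letters were in 6 of the 16 tRNA synthetase promoters in the table (37.5%), those of AARS1, CARS1, IARS1, MARS1, NARS1 and TARS1, and in 60 of the 12282 promoters of genes tested (0.489%), against 0.923% of all 27305 promoters of the table. They were in 1 of 21 promoters of the ATF4 list, that of CHAC1, and in 4 of the 325 of genes that rose (1.23%), which are CHAC1, MARS1, TARS1 and the mitochondrial folate enzyme gene MTHFD1L (0.25). AARS1 (0.05), NARS1 (0.13), CARS1 and IARS1 (0.14 each) did not pass between the windows. Of these 4 promoters 3 are shown, those of CHAC1 and the tRNA synthetases, with the match in capitals (here on the opposite strand, as TTGCATCA), and lie at chr15:40953221-40953520 (CHAC1, + strand), chr12:57487818-57488117 (MARS1, + strand) and chr5:33440715-33441014 (TARS1, + strand) of GRCh38.p14. The match begins 209 bases before the start site in CHAC1, 4 bases before it in MARS1 and at base 3 after it in TARS1.
CHAC1: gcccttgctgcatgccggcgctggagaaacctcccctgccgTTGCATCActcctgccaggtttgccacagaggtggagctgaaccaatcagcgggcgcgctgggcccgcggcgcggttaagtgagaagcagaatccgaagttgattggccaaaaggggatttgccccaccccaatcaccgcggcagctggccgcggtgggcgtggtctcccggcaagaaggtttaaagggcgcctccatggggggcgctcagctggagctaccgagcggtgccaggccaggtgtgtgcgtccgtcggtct
MARS1: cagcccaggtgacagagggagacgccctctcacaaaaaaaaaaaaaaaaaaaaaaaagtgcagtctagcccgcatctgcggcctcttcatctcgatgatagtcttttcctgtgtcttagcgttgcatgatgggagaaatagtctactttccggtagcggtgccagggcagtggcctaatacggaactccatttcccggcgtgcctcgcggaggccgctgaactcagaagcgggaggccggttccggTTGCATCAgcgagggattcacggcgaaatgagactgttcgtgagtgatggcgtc
TARS1: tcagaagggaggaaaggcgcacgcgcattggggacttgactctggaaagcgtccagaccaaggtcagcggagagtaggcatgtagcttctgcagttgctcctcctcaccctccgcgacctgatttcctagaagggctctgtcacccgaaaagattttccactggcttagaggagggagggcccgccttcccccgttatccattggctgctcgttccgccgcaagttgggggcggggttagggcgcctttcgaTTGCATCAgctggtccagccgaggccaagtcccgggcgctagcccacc

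Ribosome biogenesis factors, the nucleolar proteins that make and process rRNA and assemble the subunits, rose in 19 of 45 cases, and 29 passed as rising lines. None fell, and all 45 had a log2 change above 0 (median 0.21). DKC1, the pseudouridine synthase of box H/ACA particles, had 4000, 4522, 4523, 4641 and 5046 counts at 190-230 min, against 3217, 3484, 3817 and 3855 at 150-180 min (log2 change 0.34, SE 0.07, adjusted p = 0.0206). Its fitted jump at the border was −0.01 (SE 0.08). The RNA helicase DDX10 (0.38), BOP1 of the large subunit pathway (0.35), LYAR (0.35), NOP56 of the box C/D particle (0.31) and the polymerase I factor RRN3 (0.26) also rose. FBL, the methyltransferase of the box C/D particle, had a log2 change of 0.05 and did not pass.

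The letters CACGTG, the E-box read by MYC and related factors, were in 15 of the 37 ribosome biogenesis promoters in the table (40.5%) and in 9.83% of the promoters of genes tested. They were in 46 of the 325 promoters of genes that rose (14.2%). Among the 15 are those of PES1 and NOP2, which rose by 0.21 and 0.29, and that of FBL, which did not pass. The PES1 promoter lies at chr22:30591861-30592160 and that of NOP2 at chr12:6568242-6568541 (both − strand, GRCh38.p14), with the letters in capitals at bases 14 and 36 after the start site. They are printed because these genes moved together.
PES1: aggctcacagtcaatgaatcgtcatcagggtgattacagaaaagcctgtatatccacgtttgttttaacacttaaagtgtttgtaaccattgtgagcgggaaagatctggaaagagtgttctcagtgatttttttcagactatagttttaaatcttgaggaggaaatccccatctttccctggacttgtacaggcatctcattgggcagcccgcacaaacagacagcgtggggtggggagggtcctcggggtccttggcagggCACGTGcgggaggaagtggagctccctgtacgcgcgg
NOP2: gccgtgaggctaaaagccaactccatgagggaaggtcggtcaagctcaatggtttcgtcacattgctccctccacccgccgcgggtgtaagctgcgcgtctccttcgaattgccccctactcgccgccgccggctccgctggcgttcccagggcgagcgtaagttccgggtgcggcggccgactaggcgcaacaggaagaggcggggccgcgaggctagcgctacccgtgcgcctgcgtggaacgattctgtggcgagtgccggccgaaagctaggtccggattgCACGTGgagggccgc

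Other parts of the protein synthesis machinery moved the same way by less. Translation factors rose in 5 of 23 cases (median 0.16), led by EIF5 (0.31) and EIF4A1, the helicase that unwinds mRNA leaders, with 43540 counts on average at 190-230 min and 36480 at 150-180 min (0.26). The chaperonin CCT and prefoldin rose in 4 of 14 cases, CCT5, CCT2, CCT6A and CCT3 at 0.20 to 0.24, and all 14 had a positive change. Tubulins, substrates of CCT, rose in 5 of 14 cases, TUBE1 by 0.41, TUBB2A by 0.28, TUBB6 and TUBA1C by 0.27 each. Of 30 cytosolic ribosomal protein genes none passed, although all 30 had a positive change (median 0.09), and their counts hold reads shared with pseudogenes. Host lncRNAs of snoRNAs rose in 5 of 17 cases, among them SNHG12 (0.39), DANCR (0.38) and GAS5 (0.22). Proteasome subunits (0 of 26 in either direction, median 0.06) and nuclear-encoded respiratory chain subunits (0 of 24, median 0.05) did not pass.

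NF-kappaB, a transcription factor family held in the cytoplasm by IkappaB proteins, gave the highest median, 0.32, among lists with at least 10 genes tested. Of 24 genes tested 7 rose and none fell, and 11 passed as rising lines. The list includes both subunits and targets. ICAM1, an adhesion molecule for leukocytes, had 113, 124, 133, 156 and 179 counts at 190-230 min, against 52.9, 63.5, 103 and 102 at 150-180 min (log2 change 0.87, SE 0.21, adjusted p = 0.049). The other 6 were PTGS2, the prostaglandin synthase COX-2 (0.52), the IkappaB family members NFKBIE (0.43) and BCL3 (0.45), the subunits RELB (0.41) and NFKB1 (0.35), and TNIP1 (0.41), which restrains the pathway with A20. CXCL8 (0.82), TRAF1 (0.61), CCL2 (0.28) and NFKB2 (0.28) passed only as rising lines. NFKBIA, the most rapidly induced inhibitor, had a change of 0.11 and RELA of 0.07, and neither passed. Between serum addition (0-10 min) and 110-140 min PTGS2 had risen by 2.19 and ICAM1 by 0.97 (adjusted p = 0.038, past 0.05 and not 0.01), and BCL3 (0.09) and NFKBIE (−0.15) passed neither limit.

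The letters GGAATTTCC, a core form of the NF-kappaB site, were in 7 of the 21 promoters of this list (33.3%) and in 0.456% of the promoters of genes tested. Among the 325 promoters of genes that rose they were in 4 (1.23%), those of ICAM1, NFKB1, COL7A1 and MICAL3. The first 3 are printed because they include COL7A1, a gene past 0.01 that is on no NF-kappaB list here, with the match in capitals (GGAAATTCC where it lies on the opposite strand). They lie at chr19:10270870-10271169 (ICAM1, + strand, match 186 bases before the start site), chr3:48595280-48595579 (COL7A1, − strand, 157 before) and chr4:102501109-102501408 (NFKB1, + strand, 48 before) of GRCh38.p14. A match describes the letters and says nothing of binding in these cells.
ICAM1: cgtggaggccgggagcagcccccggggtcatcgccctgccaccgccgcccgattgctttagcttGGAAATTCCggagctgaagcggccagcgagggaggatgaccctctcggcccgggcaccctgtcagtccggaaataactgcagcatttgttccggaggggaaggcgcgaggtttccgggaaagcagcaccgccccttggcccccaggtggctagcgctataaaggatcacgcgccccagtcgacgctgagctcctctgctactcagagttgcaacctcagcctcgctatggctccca
COL7A1: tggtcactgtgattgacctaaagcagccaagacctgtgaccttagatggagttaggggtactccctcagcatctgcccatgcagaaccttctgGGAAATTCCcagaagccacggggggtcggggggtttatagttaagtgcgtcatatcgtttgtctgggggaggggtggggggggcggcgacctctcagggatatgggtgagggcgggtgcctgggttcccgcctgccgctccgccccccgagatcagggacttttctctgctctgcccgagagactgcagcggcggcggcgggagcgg
NFKB1: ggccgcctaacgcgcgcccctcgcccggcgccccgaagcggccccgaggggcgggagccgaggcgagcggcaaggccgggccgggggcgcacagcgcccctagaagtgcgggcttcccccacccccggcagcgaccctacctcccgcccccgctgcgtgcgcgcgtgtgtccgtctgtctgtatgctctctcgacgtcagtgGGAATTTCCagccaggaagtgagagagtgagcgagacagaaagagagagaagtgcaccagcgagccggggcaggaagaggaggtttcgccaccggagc

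Secreted and surface proteins rose as well. Proteases and their inhibitors rose in 5 of 22 cases (median 0.17), which were ADAM12, ADAM19 (0.51), the urokinase receptor PLAUR (0.44), the collagenase MMP1 (0.34) and the inhibitor SERPINE2 (0.18). Matrix genes rose in 5 of 28 cases and none fell, with the basement membrane chains COL4A1 (0.25) and COL4A2 (0.24) beside COL7A1, the crosslinking enzyme LOXL2 (0.18) and the matricellular protein TNC (0.25, with 30360 counts on average at 190-230 min and 25540 at 150-180 min). The fibrillar collagens COL1A1 (−0.25), COL1A2 (−0.10) and COL3A1 (−0.04) did not pass. Of 23 growth factor genes and EGF receptor genes 4 rose. BMP6, a bone morphogenetic protein, had 46.3, 68.9, 51.5, 75.7 and 72.7 counts at 190-230 min, against 24.7, 27.9, 37.9 and 25.2 at 150-180 min (log2 change 1.14, SE 0.19, adjusted p = 0.0167). VEGFC (0.52), NRG1 (0.32) and EGFR (0.24) rose too, while FGF18 fell (−0.48). Targets of SRF and MRTF in the actin cytoskeleton rose in 5 of 28 cases (median 0.15), among them TGFB1I1 (0.30) and FHL2 (0.28).

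Metallothioneins and zinc transporters rose in 3 of 10 cases, all 10 with a positive change (median 0.25). These were MT1X (0.39), the zinc importer SLC39A14 (0.36) and MT2A, with 4854 counts on average at 190-230 min and 3839 at 150-180 min (0.34). Reads of the metallothionein paralogs can be shared between them.

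Several of the largest rises were in genes on none of these lists and were read by size alone. FRMD5, a membrane-linked FERM protein, had 365, 494, 515, 475 and 582 counts at 190-230 min, against 183, 199, 247 and 299 at 150-180 min (log2 change 1.097, SE 0.16, adjusted p = 0.0206). LDLRAD4, an inhibitor of TGF-beta signaling, had 238, 353, 333, 434 and 443 at 190-230 min, against 162, 172, 204 and 211 at 150-180 min (0.97, SE 0.18, adjusted p = 0.0255). XYLT1, which starts the sugar chains of proteoglycans, had 462, 603, 595, 621 and 691 at 190-230 min, against 252, 270, 379 and 373 at 150-180 min (0.92, SE 0.15, adjusted p = 0.0206). In all 3 the windows did not overlap. FRMD5 spans 324.5 kb, XYLT1 369.2 kb and LDLRAD4 435.3 kb, and none of them passed 0.01 between serum addition (0-10 min) and 110-140 min, where FRMD5 had a log2 change of 1.17 (adjusted p = 0.0114), XYLT1 of 0.11 and LDLRAD4 of −0.30. Over the 384 protein-coding genes that rose the median span was 38.4 kb and 28.1% were longer than 100 kb, over the 330 that fell 73.3 kb and 39.4%, and over all 14056 tested 33.6 kb and 20.3%. The genes that moved were also more abundant (median mean count 1351 for rises and 518 for falls, 208 for all tested), and the part of abundance in these spans was not tested.

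Immediate early transcription factors were on the way down. Of 28 genes 4 fell and none rose at 0.05, 15 passed as falling lines, and the median was −0.38, the lowest of any list. FOSB, a FOS family partner of JUN, had 927, 721, 715, 602 and 487 counts at 190-230 min, against 1994, 1743, 1279 and 1134 at 150-180 min (log2 change −1.17, SE 0.23, adjusted p = 0.0387). Its slope of −1.51 per hour (SE 0.06) had the lowest adjusted p of all genes in the line fit (3.5e-10), and its fitted jump at the border was −0.07 (SE 0.12). NR4A3, an orphan nuclear receptor, had 422, 418, 416, 322 and 241 counts at 190-230 min, against 879, 822, 638 and 586 at 150-180 min (−1.03, SE 0.19, adjusted p = 0.0316). NR4A2 (−1.36) and EGR2 (−0.71) also fell. EGR3 (−1.29), ID1 (−0.97), ID2 (−1.03), ATF3 (−0.77) and JUNB (−0.72) passed only as falling lines. MYC (−0.08), JUN (−0.01) and FOSL1 (0.05) did not pass in either fit, and KLF2 (0.47) was the 1 member that passed as a rising line.

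Feedback genes of TGF-beta and BMP signaling split. The inhibitory SMADs fell, SMAD7 with 1556, 1351, 1271, 1314 and 1223 counts at 190-230 min, against 2193, 2122, 1647 and 1577 at 150-180 min (−0.49, SE 0.11, adjusted p = 0.0417), and SMAD6 by 0.41 on the log2 scale. BAMBI, a decoy receptor, fell too (−0.32). PMEPA1 (0.26) and the activin binder FST (0.21) rose, so that 2 of 20 rose and 3 fell. In the fit of 41 libraries SMAD7 (adjusted p = 0.0937), SMAD6 (0.0565) and PMEPA1 (0.0681) did not pass 0.05. TGFBR3, the coreceptor betaglycan, had 377, 298, 295, 304 and 246 counts at 190-230 min, against 749, 706, 480 and 492 at 150-180 min, one of the largest falls (−1.01, SE 0.17, adjusted p = 0.0222). Targets of YAP and TEAD fell in 6 of 22 cases and rose in 2. FOXF2 (−0.43), AJUBA (−0.39), AMOTL2 (−0.36), LATS2 (−0.32), CCN2 (−0.29) and DLC1 (−0.21) fell, and GADD45A (0.20) and CRIM1 (0.29) rose. ANKRD1 (−0.14) and CCN1 (−0.18) did not pass between the windows.

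Growth arrest and FOXO target genes fell in 6 of 30 cases and rose in 1, with a median of −0.28, and 9 passed as falling lines. BMF, a pro-apoptotic BH3-only protein, had 52.6, 41.4, 51.5, 43.6 and 36.3 counts at 190-230 min, against 111, 106, 68.7 and 69.9 at 150-180 min (−1.02, SE 0.17, adjusted p = 0.0177). KLHL24, an adaptor of a ubiquitin ligase, had 1088, 1074, 1058, 951 and 655 counts at 190-230 min, against 1734, 1738, 1442 and 1390 at 150-180 min (−0.72, SE 0.15, adjusted p = 0.0434). TP53INP1 (−0.53), PNRC1 (−0.50), CCNG2 (−0.43) and TRIB2 (−0.36) fell too. The member that rose was DDIT4, which is also on the ATF4 list. TXNIP (−0.39) and FOXO1 (−0.29) did not pass, and BBC3, the BH3-only protein PUMA, had a change of 0.84 and did not pass either. CDKN1B, the cell cycle inhibitor p27, had fallen by 2.80 between serum addition (0-10 min) and 110-140 min and rose by 0.30 here.

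**Figure D5:**
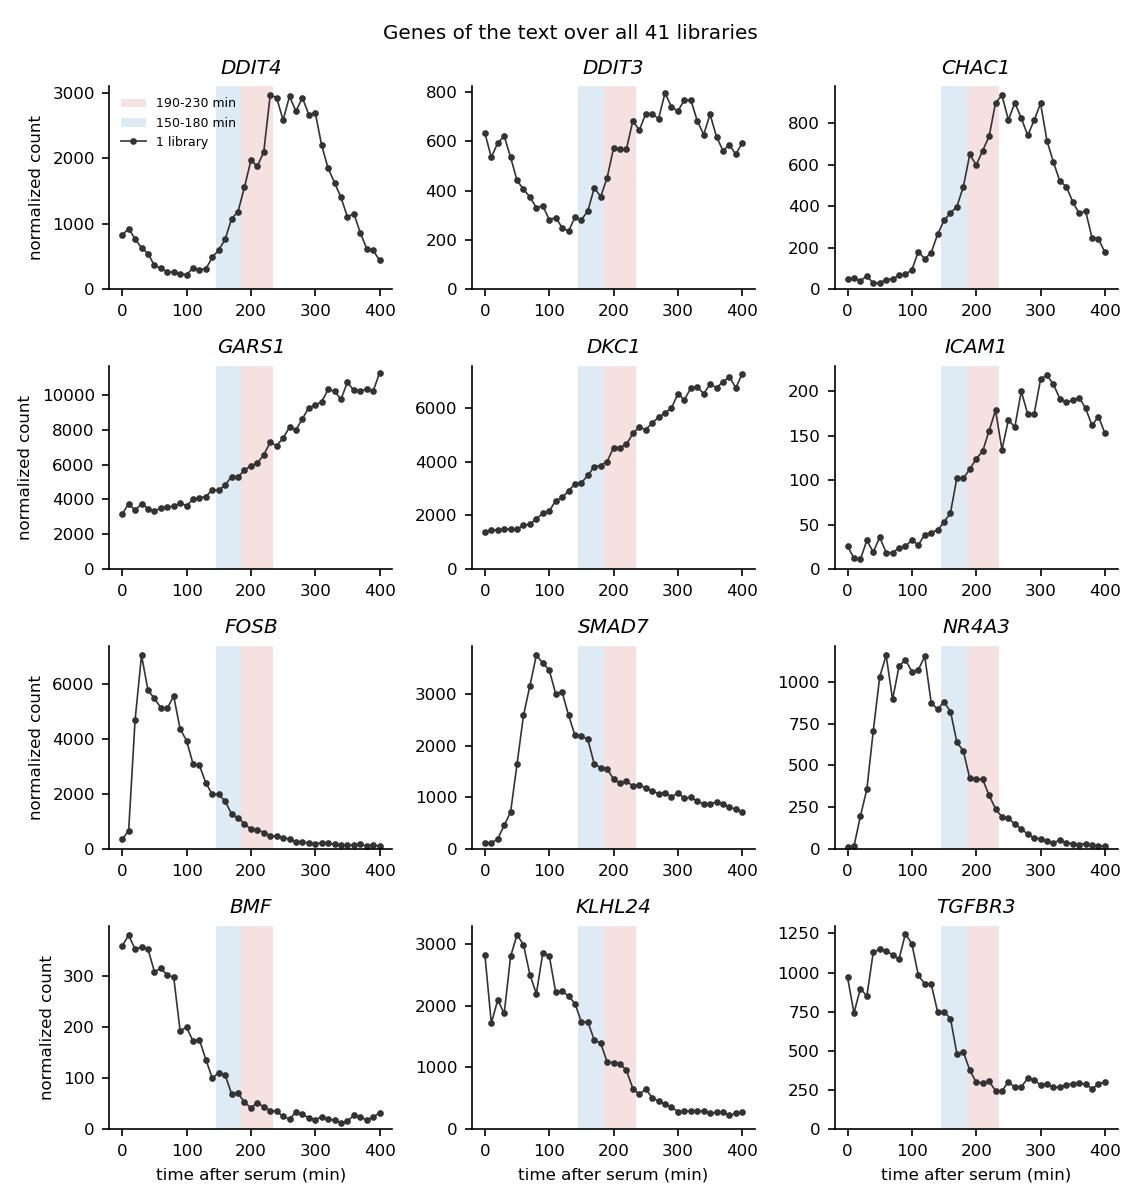
Normalized count (vertical axis, from 0) in each of the 41 libraries by time after serum in min for 12 genes of the text, with 190-230 min (red) and 150-180 min (blue) shaded. DDIT4, DDIT3 and CHAC1 climb through both windows, DDIT4 and CHAC1 decline later while DDIT3 ends between 547.6 and 709.8 at 350 to 400 min, GARS1 and DKC1 go on rising, and FOSB, SMAD7, BMF and TGFBR3 fall through both windows without a visible break at the border.

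Clock genes fell in 2 of 19 cases, PER2 (−0.43) and TEF (−0.26), and cilium and Hedgehog genes in 2 of 21, the receptor PTCH1 (−0.79) and the transcription factor GLI3 (−0.50). The Notch list held 1 fall in 13, HEY1 (−0.70), and the list of ERK feedback inhibitors 1 in 16, the phosphatase DUSP4 (−0.47). The kinase PIM1 (−0.74) and the receptor IL6R (−0.39) were the 2 of 19 IL6 family genes that fell.

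Genes of the later cell cycle mostly did not pass. Of 28 DNA replication genes none passed at 0.05 or as a line (median 0.003), and of 24 G2 and mitosis genes 1 fell, CDC25B (−0.43), with a median of −0.09. No replication-dependent histone gene of 15 passed (median −0.07). Among G1 genes CDKN1B alone passed, of 21. Interferon-stimulated genes had a median of −0.20 with 1 of 22 falling, IFIH1 (−0.36). No gene of the NRF2 list (0 of 18) or the fatty acid list (0 of 14) passed at 0.05.

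Of 3508 lncRNAs tested none passed 0.01, 17 rose and 21 fell at 0.05, and 51 and 95 had windows that did not overlap. Over all 21629 genes tested 415 rose (1.92%) and 366 fell (1.69%), and 953 (4.41%) and 785 (3.63%) had such windows. Each of these shares is larger than that among the lncRNAs. The 90th percentile of the absolute log2 change was 0.58 over lncRNAs and 0.32 over protein-coding genes. The part of counting precision in the smaller shares of lncRNAs was not tested, so they do not show that lncRNAs changed less. CARMN, the host transcript of microRNAs of smooth muscle, averaged 550 counts at 190-230 min and 958 at 150-180 min (−0.81, SE 0.16, adjusted p = 0.036). FAM182B (−0.998), BCAN-AS1 (−0.88), RFPL1S (−0.73), MIR503HG (−0.55) and GASAL1 (−0.48) were the other leading falls. LINC02015 (0.63), SNHG12, DANCR, HK2-DT (0.34), MAP3K4-AS1 (0.34) and LINC00662 (0.30) led the rises. LINC02015 did not pass 0.05 with DESeq2 (adjusted p = 0.0507) or in the fit of 41 libraries (0.0884), nor MAP3K4-AS1 in the fit of 41 libraries (0.154). CARMN had risen by 4.58 and GASAL1 by 2.42 between serum addition (0-10 min) and 110-140 min. LINC02015 and BCAN-AS1 averaged fewer than 40 counts in either window.

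The remaining large falls came from genes of mixed roles. CTTNBP2, a cortactin-binding protein of neurons, had 114, 107, 105, 87.2 and 74.2 counts at 190-230 min, against 286, 252, 154 and 165 at 150-180 min (−1.18, SE 0.21, adjusted p = 0.0222), the largest fall among protein-coding genes averaging 100 counts or more. HBP1, a repressor of cell cycle genes, fell by 0.71, TOB1, an anti-proliferative adaptor of mRNA deadenylation, by 0.72, and JMY, a nucleator of actin filaments, by 0.72 on the log2 scale. MGAT4A, a Golgi glycosyltransferase, fell by 0.71. In CTTNBP2, BMF, TGFBR3 and FOSB alike, the libraries at 150 and 160 min were higher than those at 170 and 180 min, a change that lies before the border.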

How the data were processed

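Gene counts of 41 libraries, every 10 min to 400 min after serum, were used. The authors trimmed reads with cutadapt 1.11, aligned them to GRCh38 with STAR 2.5.2a and made the deposited counts with featureCounts over exons, by strand, with multi-mapping and overlapping reads counted for each gene. The deposited normalized table is a signal that the authors made by dividing counts by DESeq2 1.24.0 size factors over all libraries. The size factors were recomputed from the counts by median of ratios. Symbols came from GENCODE v44 (58207 of 58721 genes matched, 469 did not and 45 pseudoautosomal Y copies were left out); 77 spike-in sequences entered no gene test. Genes with over 10 counts in 1 library and over 2 in 3 consecutive libraries were kept (21629).

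Windows were compared with edgeR 4.0.16 (R 4.3.3, limma 3.58.1) quasi-likelihood tests on the counts with Benjamini-Hochberg adjustment, at adjusted p below 0.01 and 0.05, with 7 residual degrees of freedom. There is 1 library per time point, so p-values measure only the spread between neighboring libraries. A window term beside time tested the border, and a straight line in time (added after the data were seen) the drift. Alternatives were TMM, spike-in size factors, a mean count of at least 10, no filter, DESeq2 1.42.0, a fit of 41 libraries, 3 libraries a side and each library left out. Tests were checked on simulated data. Depth limits precision for genes with few counts. Tables were handled with Python 3.11.15, numpy 2.4.6 and pandas 2.3.3, and figures drawn with matplotlib 3.10.9.

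The rule for named genes ranked genes past the threshold by log2 change and took 15 protein-coding genes (averaging 100 counts or more) in each direction, 6 lncRNAs in each direction (averaging 20 or more), no more than 4 genes from any list, and 8 genes each way for the jump and 6 for each bend. It was set for 0.01 and applied again at 0.05 after the data were seen. Other named genes were chosen after their values were seen. The members, windows and lists were chosen with earlier results of these data known. Promoters are from RefSeq (GRCh38.p14), 250 bases before to 50 after each start. Some genes and 1 list are not reported here.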

Additional observations from a re-analysis of the deposited data

Results flagged for a closer look

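Of 280 groups of values checked, 14 held a library far from the others of its window by Dixon's criterion, where chance gives about 1 in 20. The number of flags is thus about what chance gives. All 14 were at the ends of 190-230 min, 10 of them at 230 min and 4 at 190 min.

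At 230 min the count was far above the other libraries of the window for BAK1, a pro-apoptotic BCL2 protein (890.7), the chaperonin subunit CCT3 (9557), the actin-binding protein WDR1 (10980), COL4A2 (13490), MT2A (5611), PLAUR (991.6), BOP1 (1379), EIF4A1 (49170) and TUBB2A (2568). FGF18 was far below them at 230 min (82.32). The genes checked were chosen for their change between the windows, which favors extremes at the ends of a window. These values therefore cannot show whether these libraries stand apart. As given above, the median absolute deviation of a gene was largest at 230 min (0.121 on the log2 scale).

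At 190 min DKK1, a secreted Wnt inhibitor (4789), and the nucleoporin NUP35 (343.1) were far below the later libraries, and the clock gene PER2 (936.5) and the glucose transporter SLC2A3 (1065) far above them. Whether a difference between dishes takes part was not tested.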

How the results depend on the processing

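The number of genes past 0.01 between the windows, 5 higher and 4 lower, depended on the processing. It was 0 and 0 with TMM, with a mean count of at least 10 and with 3 libraries a side, 70 and 85 with spike-in size factors, 577 and 495 with no filter, 343 and 315 with DESeq2, 264 and 245 with all 41 libraries, and 415 and 366 at an adjusted p below 0.05. At an unadjusted p below 0.05 TMM gave 1838 and 2040 and the stricter filter 2036 and 1679. With 1 library left out the counts were 0 to 260 and 0 to 274. The line gave 375 to 1193 rising and 337 to 695 falling genes with 1 library left out, and 125 falling genes with spike-in size factors. The jump gave 4 genes downward with spike-in size factors and 0 to 2 with 1 library left out, and the bend from the previous windows 0 to 2 upward and 0 to 1 downward, the 2 and 1 coming without 140 min. The comparison of 110-140 with 0-10 min gave 1159 and 260 with spike-in size factors and, with 1 library left out, 1661 to 3298 and 552 to 1446. That of 350-400 with 240-280 min gave 139 and 790 with spike-in size factors and 1629 to 1867 and 1523 to 1775 with 1 left out. The causes were not tested.

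None of 134 named genes reversed under any alternative, and 937 of 1876 values kept their side of 0.05. The alternatives reuse the libraries from which these genes were picked, so the kept signs are no independent support. With spike-in size factors 83 of the 134 no longer passed 0.05, with the fit of 41 libraries 13 and with DESeq2 4. Those lost in the fit of 41 libraries include CDKN1B, GADD45A, FGF18, EIF5, TUBE1 and TEF. No paired analysis was possible because each time point has 1 library and the libraries share no replicate number.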

Other observations

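Several other genes moved outside the groups described above. XBP1, a transcription factor of the unfolded protein response, rose by 0.36 and was the 1 of 22 endoplasmic reticulum chaperone and stress genes to pass. The polyamine enzymes ODC1 (0.26) and SMS (0.18) rose, 2 of 11. Of 30 nucleoporins, importins and exportins 3 rose, which were NUP35 (0.37), the GTPase RAN (0.27) and KPNA4 (0.25), and of 24 splicing factors 2 rose, SRSF7 (0.22) and SRSF2 (0.21). The fibronectin receptor subunit ITGA5 rose by 0.30, the 1 of 26 integrin and adhesion genes to pass.

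Wnt genes moved both ways, 3 of 19 rising and 2 falling. DKK1 (0.47), WNT5B (0.29) and SFRP1 (0.27) rose, while WNT9A (−0.46) and AXIN2, a feedback inhibitor of the pathway (−0.76), fell. In the BCL2 family BAK1 rose by 0.29 and BMF fell. The glucose transporter SLC2A3 fell by 0.30 on the log2 scale and was the 1 of 22 glycolysis genes to pass, and the cochaperone BAG3 (−0.32) was the 1 of 25 heat shock genes.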
